A study of Mus musculus with 3 samples.

Results

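The NF-kB subunit genes and the genes of the brakes that NF-kB and cytokine signalling switch on were followed in mouse peritoneal macrophages that were left untreated, fed apoptotic cells or given LPS. The set was chosen by name and comprised 10 genes: the subunit genes Rel, Relb, Nfkb1 and Nfkb2, the IkB-family genes Nfkbia, Nfkbie and Nfkbiz, and the feedback genes Tnfaip3, Socs3 and Zfp36. Values were read for 6 of them, Rel, Nfkbia, Nfkbie, Nfkbiz, Socs3 and Zfp36, out of 20574 genes in all, and Relb, Nfkb1, Nfkb2 and Tnfaip3 were not analysed here. The macrophages were primary cells labelled WT and kept in DMEM, and each condition was 1 RNA-seq library. Apoptotic cells were given for 5 h at 5 per macrophage, and those not taken up were rinsed off. LPS, the bacterial lipid that Toll-like receptor 4 senses, was given for 5 h at 100 ng/ml. The labels give no time for the untreated library, so treatment and time in culture cannot be told apart in comparisons with it, and they give no strain, age or source of the apoptotic cells. With 1 library per condition no difference below has a replicate check or a p-value.

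NF-kB dimers wait in the cytoplasm of resting macrophages bound to IkB proteins. Signals from Toll-like receptors lead the IkB kinase complex to mark IkB for destruction, the dimers enter the nucleus, and among the first genes they switch on are those of their own inhibitors. Nfkbia encodes IkB-alpha and Nfkbie encodes IkB-epsilon, both of which hold dimers out of the nucleus, whereas Nfkbiz encodes IkB-zeta, a nuclear cofactor needed for a later set of cytokine genes. Rel encodes c-Rel, a subunit that can activate transcription. Socs3 blocks cytokine receptors that signal through STAT3, and Zfp36 encodes tristetraprolin, which binds AU-rich messages such as that of Tnf and promotes their decay.

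The values were taken as FPKM, reads per kilobase of transcript scaled to a common number of mapped reads. They summed to between 197222 and 200224 per library. The spacing of the lowest values put 1 read per kb at 0.301 FPKM without treatment, 0.325 FPKM after apoptotic cells and 0.333 FPKM after LPS, which stands for about 3320000, 3080000 and 3000000 mapped reads. Exact zeros were frequent: where the remaining libraries both had a gene above 0, the untreated library listed 38.6% of such genes at 0, the apoptotic-cell library 18.6% and the LPS library 21.9%. Such a 0 may be a failed estimate, so it is given here as listed, and ratios were formed only between values above 0. Among macrophage markers Csf1r stood at 56.3 FPKM without treatment, 185 FPKM after apoptotic cells and a listed 0 after LPS, and Cd14 at 303, 555 and 0 FPKM in that order, so both had a listed 0 after LPS, as did Lyz1, while Vsig4 stood there at 11.6 FPKM. B-cell markers were present in each library, with summed values over 10 genes of 863, 218 and 163 FPKM in the same order.

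The stretch before the transcription start is shown for Nfkbia and Socs3, the 2 genes with ratios to the untreated library, because NF-kB is known to act at the first of these promoters. The 250 bases before the RefSeq start are printed on the gene's strand, 5′ to 3′, from the GRCm38.p6 assembly, which mm10 names as well. Capitals mark matches on either strand to a loose form of the NF-kB site: GGG, any 5 bases, then CC.
Nfkbia, minus strand, chr12:55492648-55492897: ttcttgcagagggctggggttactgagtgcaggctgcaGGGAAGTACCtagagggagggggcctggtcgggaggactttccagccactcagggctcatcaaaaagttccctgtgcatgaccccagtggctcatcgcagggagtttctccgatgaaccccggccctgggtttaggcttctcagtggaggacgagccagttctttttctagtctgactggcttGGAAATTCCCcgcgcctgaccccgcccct
Socs3, minus strand, chr11:117969367-117969616: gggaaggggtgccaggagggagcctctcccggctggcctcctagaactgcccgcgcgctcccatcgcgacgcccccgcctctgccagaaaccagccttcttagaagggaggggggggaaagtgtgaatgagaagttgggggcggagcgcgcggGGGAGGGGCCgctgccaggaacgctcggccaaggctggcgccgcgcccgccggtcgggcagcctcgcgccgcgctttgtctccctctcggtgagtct

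Nfkbia had 2 matches, from 212 to 203 and from 29 to 20 bases before the start. The match nearer the start reads GGAAATTCCC on the gene's strand, and its reverse complement has the GGG end. Socs3 had 1 match, from 97 to 88 bases before the start, in a run rich in G. Part of that window overlaps an exon of a noncoding Socs3 transcript in GENCODE M21. For TTCNNNGAA, a loose form of the STAT site searched in the same windows, Socs3 had 1 match, TTCTTAGAA, from 154 to 146 bases before the start, Zfp36 had 1, TTCTGCGAA, from 17 to 9 bases before its start, and Nfkbia, Rel and Nfkbie had 0. Rel, Nfkbie and Zfp36 had 4, 3 and 3 positions matching the loose NF-kB form, some of them overlapping, among them GGGAAATCCC in Rel from 92 to 83 bases before the start, which matches on both strands. The form is common: 45.8% of 32851 promoter windows of the same length held it, and 7.02% held TTCNNNGAA. A match describes letters and not binding.

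Of 18 values, 6 genes in 3 libraries, 11 were above 0 and 7 were listed at 0. The untreated library had 2 of the genes above 0, the apoptotic-cell library 5 and the LPS library 4. Socs3 was above 0 in every library.

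**Figure D1:**
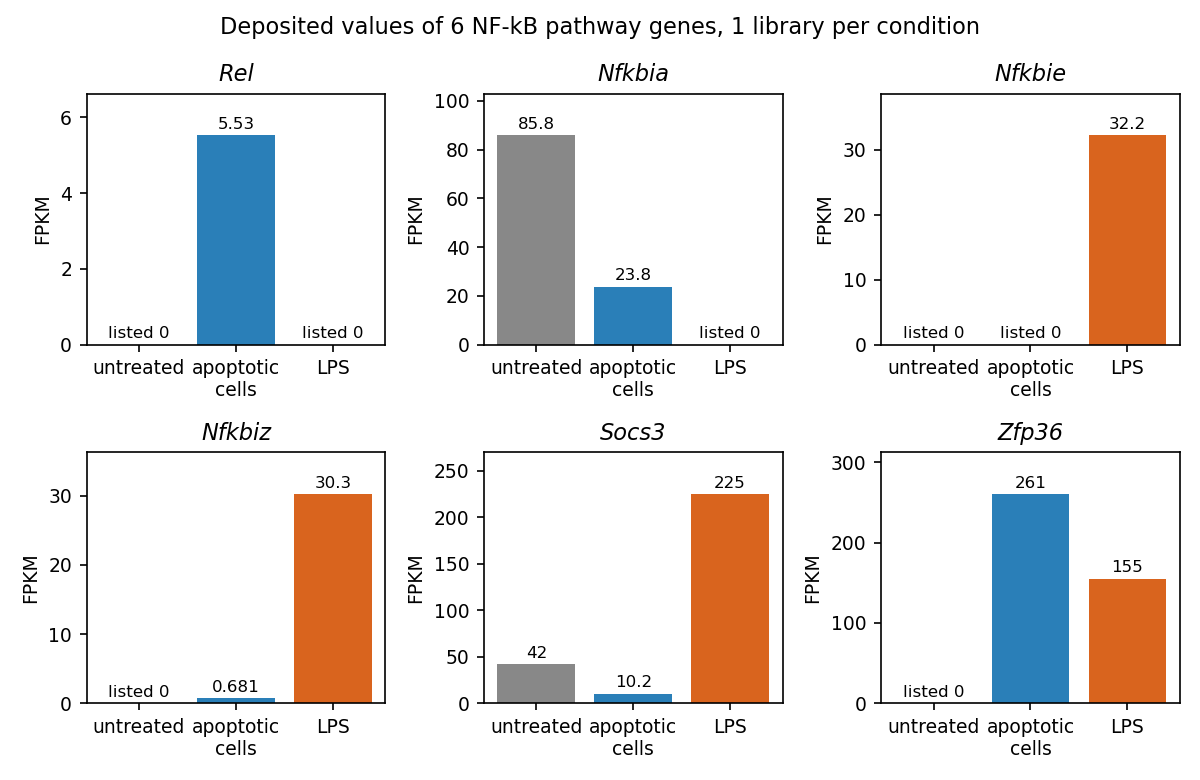
Bars give the deposited FPKM of each gene (vertical axis, linear, from 0, with its own range per panel) without treatment, with apoptotic cells and with LPS, 1 library each, so there are no error bars. Socs3 runs from 10.2 FPKM with apoptotic cells to 225 FPKM with LPS, and 7 of the 18 values are marked as listed at 0.

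Rel, on chromosome 11 from 23736847 to 23770970 in mm10 coordinates, was listed at 0 in the untreated library, 5.53 FPKM with apoptotic cells and 0 with LPS. The value with apoptotic cells stands for about 124 reads on its transcript of 7466 bases, and 56.6% of the genes above 0 in that library were at or below it. No ratio can be given for Rel, because each comparison meets a listed 0. Rela, the subunit that pairs with the Nfkb1 product in the most common dimer, is outside the set and is given because it was above 0 throughout. It stood at 37.1 FPKM untreated, 26.8 FPKM with apoptotic cells and 53.8 FPKM with LPS. All log2 ratios here, and the counts past 2-fold, use FPKM + 1, while folds printed with an interval use FPKM as deposited. Against untreated the log2 ratios of Rela were -0.46 with apoptotic cells and 0.53 with LPS, both under 2-fold, and apoptotic cells against LPS gave -0.98, also under 2-fold on that scale (2.01-fold higher with LPS by FPKM).

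Nfkbia, on chromosome 12 from 55489410 to 55492647, had 85.8 FPKM untreated, 23.8 FPKM with apoptotic cells and 0 with LPS. The values above 0 stand for about 393 and 101 reads. In the untreated library it lay above most expressed genes (percentile 95.9 of those above 0), and with apoptotic cells at percentile 83.9. The value with LPS is a listed 0 of the kind described above, and no direction is drawn from it. The other IkB-family genes of the set met listed zeros as well, and no direction is drawn from those either. Nfkbie, on chromosome 17 from 45555703 to 45563169, had 32.2 FPKM with LPS, about 271 reads, and a listed 0 in both other libraries. Nfkbiz, on chromosome 16 from 55811375 to 55838899, was listed at 0 untreated, 0.681 FPKM after apoptotic cells and 30.3 FPKM after LPS, the low value resting on about 8 reads and the high one on about 356.

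Socs3, on chromosome 11 from 117966079 to 117970047, had 42.0 FPKM untreated, 10.2 FPKM with apoptotic cells and 225 FPKM with LPS, or about 328, 74 and 1589 reads. The LPS library held the highest value and the apoptotic-cell library the lowest. Among genes above 0 it stood at percentile 90.3 untreated, 69.5 with apoptotic cells and 98.3 with LPS. Zfp36, on chromosome 7 from 28376784 to 28380253, was listed at 0 untreated, 261 FPKM with apoptotic cells and 155 FPKM with LPS, about 2079 and 1207 reads. In both treated libraries it was among the most abundant messages, at percentiles 98.6 and 97.5, and per length it was the highest of the 6 genes with apoptotic cells and came after Socs3 with LPS.

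The first comparison asked how these genes stood in macrophages that had met apoptotic cells against those that had met nothing. Only Nfkbia and Socs3 were above 0 in both libraries, and with apoptotic cells both were lower by more than 2-fold. Of all 3369 genes compared, 16.4% passed 2-fold downwards and 12.4% upwards. Nfkbia was 3.61-fold higher in the untreated library (95% interval 2.89 to 4.54, for counting error only), which gives a log2 ratio of -1.81. Socs3 was 4.10-fold higher untreated (counting interval 3.18 to 5.36), a log2 ratio of -1.94, which was rank 161 from the lowest, and Nfkbia was rank 186. All genes together had a median of -0.13, and relative to it Nfkbia stood at -1.68 and Socs3 at -1.80. Of all genes past 2-fold, 43.0% were higher with apoptotic cells, and 56.4% when the libraries were scaled by their median ratio. The other 4 genes had no ratio here: Rel and Zfp36, with Nfkbiz at its low value, were above 0 only with apoptotic cells, and Nfkbie was listed at 0 in both libraries.

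Markers of cell types differed in the same comparison, not all in one direction. Of the B-cell list, 4 of 4 genes with a ratio were at least 2-fold lower, and the summed values were 863 FPKM untreated and 218 FPKM with apoptotic cells, most of the first from Ly6d (563 FPKM) and Cxcr5 (214 FPKM). Another 5 of the 10 B-cell markers were listed at 0 untreated and above 0 with apoptotic cells, Cd79b (85.6 FPKM), Ms4a1 (28.9 FPKM), Blk (8.12 FPKM), Pax5 (1.47 FPKM) and Fcer2a (0.162 FPKM), and Cd79a was listed at 0 in both libraries. Mast cell markers were lower in 4 of 4, with sums of 93.0 and 13.8 FPKM over 7 genes, Ms4a2 at 0 in both, and mesothelial and fibroblast markers in 2 of 2, with sums of 19.5 and 2.05 FPKM over 5 genes. Macrophage markers with a ratio were higher in 2 of 3, with sums of 717 and 743 FPKM over 5 genes. The other 2, Lyz1 (349 FPKM) and Vsig4 (8.04 FPKM), were above 0 untreated and listed at 0 with apoptotic cells. Neutrophil markers were higher in 3 of 5, with sums of 118 and 325 FPKM over 6 genes. T cell and thymocyte markers with a ratio were past 2-fold in 0 of 3, but the sums were 31.0 and 93.6 FPKM over 11 genes. Of these, 7 were listed at 0 untreated and 1, Lck, with apoptotic cells. Rag1 (41.2 FPKM), Cd3d (8.25 FPKM), Cd3e (7.10 FPKM), Cd8a (5.41 FPKM), Themis (4.95 FPKM) and Ptcra (0.313 FPKM) were above 0 with apoptotic cells and listed at 0 untreated. The part of these cells in the lower Nfkbia and Socs3 values was not tested. In a bulk library, fewer cells of a type and less RNA per cell cannot be told apart.

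**Figure D2:**
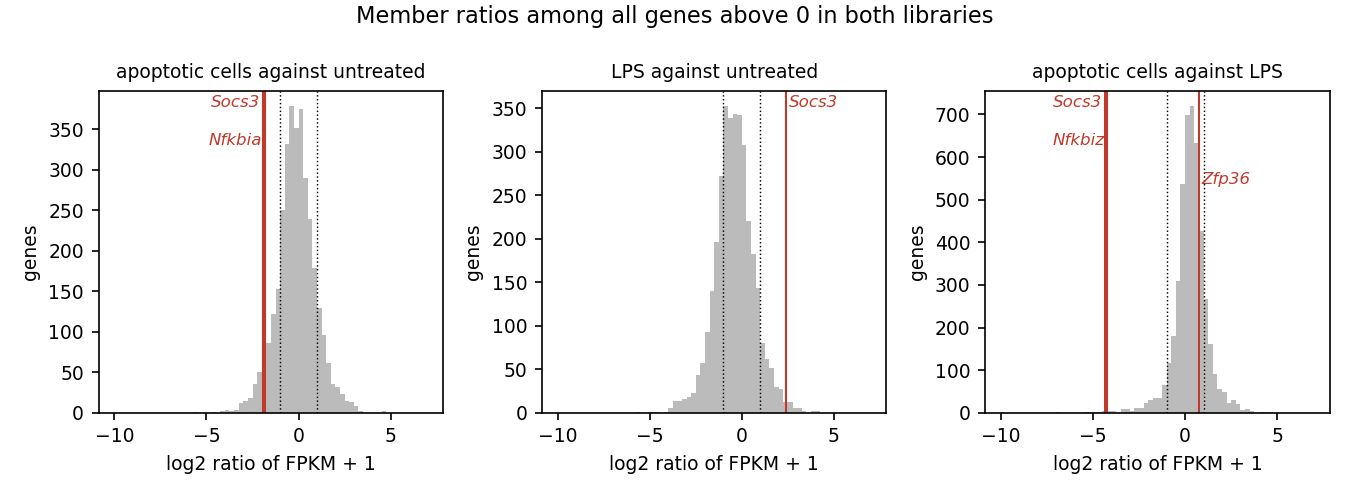
Grey histograms count genes (vertical axis) by log2 ratio of FPKM + 1 (horizontal axis) for each pair of libraries, over genes above 0 in both with a mean of at least 1 FPKM, and red lines mark the genes described here. Dotted lines mark 2-fold. Socs3 lies at -1.94, 2.40 and -4.33 in the 3 panels, and Zfp36 at 0.75 lies inside the 2-fold lines.

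The second comparison set LPS against no treatment and shares the untreated library with the first. Socs3 was the 1 gene of the set above 0 in both libraries, and it was 5.36-fold higher with LPS (counting interval 4.76 to 6.06). Its log2 ratio was 2.40, rank 33 from the highest of 3421 genes, of which 8.51% passed 2-fold upwards and 26.2% downwards. The median of all genes was -0.40, and relative to it Socs3 stood at 2.80. Scaling by the median ratio moved the share of higher genes among those past 2-fold from 24.5% to 59.9%. Nfkbie, Nfkbiz and Zfp36 were above 0 with LPS and listed at 0 untreated, Nfkbia was the reverse, and Rel was listed at 0 in both. B-cell, mast cell and T cell markers with a ratio were lower in 3 of 3, 5 of 5 and 2 of 2 cases with LPS, with sums of 163, 10.2 and 1.95 FPKM there, and the mesothelial list in 1 of 1 with a sum of 1.13 FPKM. The B-cell markers Cd79a (33.6 FPKM), Cd79b (19.1 FPKM), Ms4a1 (15.9 FPKM) and Pax5 (2.12 FPKM) were above 0 with LPS and listed at 0 untreated. Cxcr5 (214 FPKM untreated) was the reverse. Neutrophil markers were higher in 2 of 4 and lower in 1, with a sum of 496 FPKM, and macrophage markers were past 2-fold in 0 of 2, with a sum of 11.9 FPKM. These sums include listed zeros with LPS for 3 of 10 B-cell, 1 of 7 mast cell and 6 of 11 T cell markers. The same holds for 3 of 5 mesothelial, 2 of 6 neutrophil and 3 of 5 macrophage markers. The part of these cells in the Socs3 value was not tested.

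The third comparison set apoptotic cells against LPS, both at 5 h. Socs3 and Nfkbiz were far lower with apoptotic cells, whereas Zfp36 was somewhat higher. Of all 4599 genes compared, 5.54% passed 2-fold downwards and 15.7% upwards with apoptotic cells. Socs3 was 22.0-fold higher with LPS (counting interval 17.4 to 28.2), with a log2 ratio of -4.33 at rank 11 from the lowest. Nfkbiz was 44.4-fold higher with LPS (counting interval 22.3 to 104), with a log2 ratio of -4.22 at rank 15. The wide interval of Nfkbiz comes from the few reads with apoptotic cells. Zfp36 was 1.68-fold higher with apoptotic cells (counting interval 1.57 to 1.81), a log2 ratio of 0.75 and under 2-fold.

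The median of all genes was 0.32, and relative to it Socs3 stood at -4.65, Nfkbiz at -4.53 and Zfp36 at 0.43. With median-ratio scaling the share of higher genes among those past 2-fold went from 73.9% to 48.1%, and Zfp36 stood at 0.34. T cell and thymocyte markers were higher with apoptotic cells in 4 of 4 cases, B-cell markers in 2 of 6, neutrophil markers in 1 of 4 and macrophage markers in 1 of 1, and 0 of 4 mast cell and 0 of 1 mesothelial markers were past 2-fold. Their part in these ratios was not tested.

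Other genes of the pathway were read from lists chosen with earlier results of these data known, so their counts describe and support nothing. Upstream signalling genes, among them the adaptor gene Myd88, had values for 22 of 26. Of these, 13 were listed at 0 untreated, 3 with apoptotic cells and 9 with LPS. Their summed values were 192, 224 and 164 FPKM in that order. Irak1, Irak4 and the IkB kinase complex genes Ikbkb and Ikbkg were not analysed here. Chuk, also of that complex, was above 0 only with apoptotic cells (11.9 FPKM). Myd88, Rbck1 and Tbk1 were listed at 0 untreated and stood at 28.8, 28.2 and 26.1 FPKM with apoptotic cells. Irak2 (39.6 FPKM) and Ripk1 (10.2 FPKM) were above 0 untreated and listed at 0 with apoptotic cells. Such genes have no ratio in that comparison. Against untreated, 5 of the 7 with a ratio passed 2-fold downwards with apoptotic cells and 0 upwards, with a median of -1.19 against -0.13 over all genes. Map3k14, the NF-kB-inducing kinase of the noncanonical branch, had 0.451 against 9.29 FPKM (-2.83), and Traf5, an adaptor gene, 6.95 against 37.0 FPKM (-2.26). Rnf31 (-1.28), of the linear ubiquitin ligase, and Tab1 (-1.19), of the kinase complex above IkB kinase, were lower as well. With LPS, 3 of 6 were lower and 0 higher, with a median of -0.81: Map3k14 (1.37 against 9.29 FPKM, -2.12), Tab1 (-1.74) and Rnf31 (-1.18), while Irak2 stood at 29.0 against 39.6 FPKM (-0.44). Tab1 with LPS (0.244 FPKM) is under the 0.333 FPKM of 1 read per kb, so it rests on few reads. Map3k14 with apoptotic cells (0.451 FPKM) is low as well. Between the treated libraries 9 of 10 lay within 2-fold, with a median of 0.26, and Traf5 (-2.10) was the exception.

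Other subunits, inhibitors and brakes had values for 20 of 25, of which 8 were listed at 0 untreated, 8 with apoptotic cells and 4 with LPS. With apoptotic cells 3 of 7 were at least 2-fold lower than untreated and 0 higher, around a median of -0.48. They were Cish, of the same family as Socs3 (1.23 against 9.05 FPKM, -2.17), the pseudokinase gene Trib3 (-2.11) and Bcl3, a nuclear IkB-family gene (11.2 against 36.6 FPKM, -1.62), whereas Tnip3 stood at -0.48. With LPS 2 of 9 were higher, around a median of 0.33: Irak3, which restrains Toll-like receptor signalling (59.3 against 14.9 FPKM, 1.93), and Tnip3, whose product belongs to a family that binds the Tnfaip3 protein (5.79 against 1.61 FPKM, 1.38). Another 2 were lower, the Zfp36 relatives Zfp36l1 (14.7 against 107 FPKM, -2.77) and Zfp36l2 (-1.18). Against LPS, 4 of 10 were lower with apoptotic cells, Trib3 (-2.61), Irak3 (-2.22), Bcl3 (-1.96) and Tnip3 (-1.86), around a median of -0.91. Zfp36l2 (1.62) and Pdlim2 (1.34), both named after their values were seen, were the 2 that were higher.

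Known NF-kB target genes outside the set had values for 29 of 34, of which 13 were listed at 0 untreated, 5 with apoptotic cells and 13 with LPS. With apoptotic cells 8 of 12 were at least 2-fold lower than untreated and 1 was higher, around a median of -2.03. The lowest were Ptgs2 (-5.55), Tnf (-4.59), Ccl2 (-3.15) and the stress gene Gadd45b (6.84 against 50.3 FPKM, -2.71), and the higher one was the protease gene Mmp9 (1.09), named after its value was seen. Ccl3, Junb, Sod2, Il1a, Il1b, Cd40, Cxcl1, Cd83, Icam1, Ebi3, F3 and Il6 were listed at 0 untreated. With apoptotic cells all were above 0, from Il6 (0.648 FPKM) to Ccl3 (71.2 FPKM). Csf3 (80.2 FPKM untreated), Csf2 (5.84 FPKM), Cxcl10 (2.53 FPKM) and Nos2 (0.442 FPKM) were the reverse. These have no ratio there. With LPS 8 of 10 with a ratio were higher than untreated and 0 lower, around a median of 2.23, with Csf2 (3.77), Il23a (3.08), Cxcl10 (2.86) and Ier3 (845 against 123 FPKM, 2.78) ahead. Ptgs2 (218 FPKM), Marcksl1 (110 FPKM) and Ccl2 (107 FPKM) were above 0 untreated but listed at 0 with LPS, so they have no ratio there. Il1b (11441 FPKM), Junb (197 FPKM) and F3 were above 0 with LPS and listed at 0 untreated. Against LPS, 11 of 13 with a ratio were lower with apoptotic cells and 0 higher, around a median of -3.89, from Il1b (-9.88) and Tnf (-6.85) to the tissue factor gene F3 (1.32 against 65.3 FPKM, -4.84) and Ier3 (-4.52). The targets Ccl3, Sod2, Bcl2a1a, Marcksl1, Il1a, Ccl2, Cd40, Cxcl1, Ebi3, Ptgs2 and Il6 were listed at 0 with LPS. All were above 0 with apoptotic cells, from Il6 (0.648 FPKM) to Ccl3 (71.2 FPKM). Csf2 (92.6 FPKM with LPS), Cxcl10 (24.7 FPKM) and Nos2 (1.76 FPKM) were the reverse. None of these has a ratio in that comparison.

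A list of genes around Socs3 and Stat3, which also holds cytokine genes and other Socs-family genes, had values for 16 of 22. Of those, 8 were listed at 0 untreated, 6 with apoptotic cells and 8 with LPS. Stat3 itself was listed at 68.7 FPKM untreated, 28.4 FPKM with apoptotic cells and 48.5 FPKM with LPS, highest without treatment, unlike Socs3. With apoptotic cells 4 of 4 with a ratio to untreated were at least 2-fold lower, around a median of -2.02: Cish, the cytokine gene Lif (0.0857 against 3.87 FPKM, -2.17), Socs2 (0.822 against 5.66 FPKM, -1.87) and Stat3 (-1.25). The low Lif value is under the 0.325 FPKM of 1 read per kb, so it rests on few reads. Il10rb (73.8 FPKM), Ptpn11 (18.1 FPKM), Jak2, Il10ra, Il10 and Il6 were above 0 with apoptotic cells and listed at 0 untreated. Csf3 (80.2 FPKM untreated), Osm (41.8 FPKM), Socs1 and Pias3 were the reverse. With LPS 0 of 4 were past 2-fold, around a median of -0.30, with Stat3 at -0.49, Pias3 at -0.45, Socs2 at -0.14 and Socs1 at 0.03. Against LPS 2 of 4 were lower with apoptotic cells, around a median of -1.17, namely Socs2 (-1.73) and Il10 (5.01 against 17.1 FPKM, -1.59), while Stat3 stood at -0.75 and the receptor gene Il10rb at 0.64.

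Messages known to be bound by the Zfp36 family, with its partners, had values for 14 of 20 genes, and several of them are also in the list of NF-kB targets. Listed zeros numbered 7 untreated, 3 with apoptotic cells and 6 with LPS. With apoptotic cells 3 of 4 with a ratio were at least 2-fold lower than untreated, Ptgs2, Tnf and Ier3 (36.0 against 123 FPKM, -1.74), around a median of -3.17, with Il23a at -0.82. Il1b, Il6, Cxcl1, Il10, Ccl3, Il1a and Elavl1 were above 0 with apoptotic cells and listed at 0 untreated. Csf2, Dusp1 and Ppp2ca were the reverse. With LPS 4 of 5 were higher, Csf2, Il23a, Ier3 and Tnf (2.25), around a median of 2.78. Between the treated libraries 5 of 6 were lower with apoptotic cells, Il1b, Tnf, Ier3, Il23a (-3.89) and Il10, around a median of -4.20. That median includes the partner gene Elavl1 (-0.35). Ccl3 (71.2 FPKM), Il1a (14.2 FPKM), Cxcl1, Ptgs2 and Il6 were above 0 with apoptotic cells and listed at 0 with LPS. Csf2 (92.6 FPKM with LPS) and Dusp1 (37.6 FPKM) were the reverse. Zfp36 stood at 0.75 there, and a link between Zfp36 and these ratios was not tested.

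**Figure D3:**
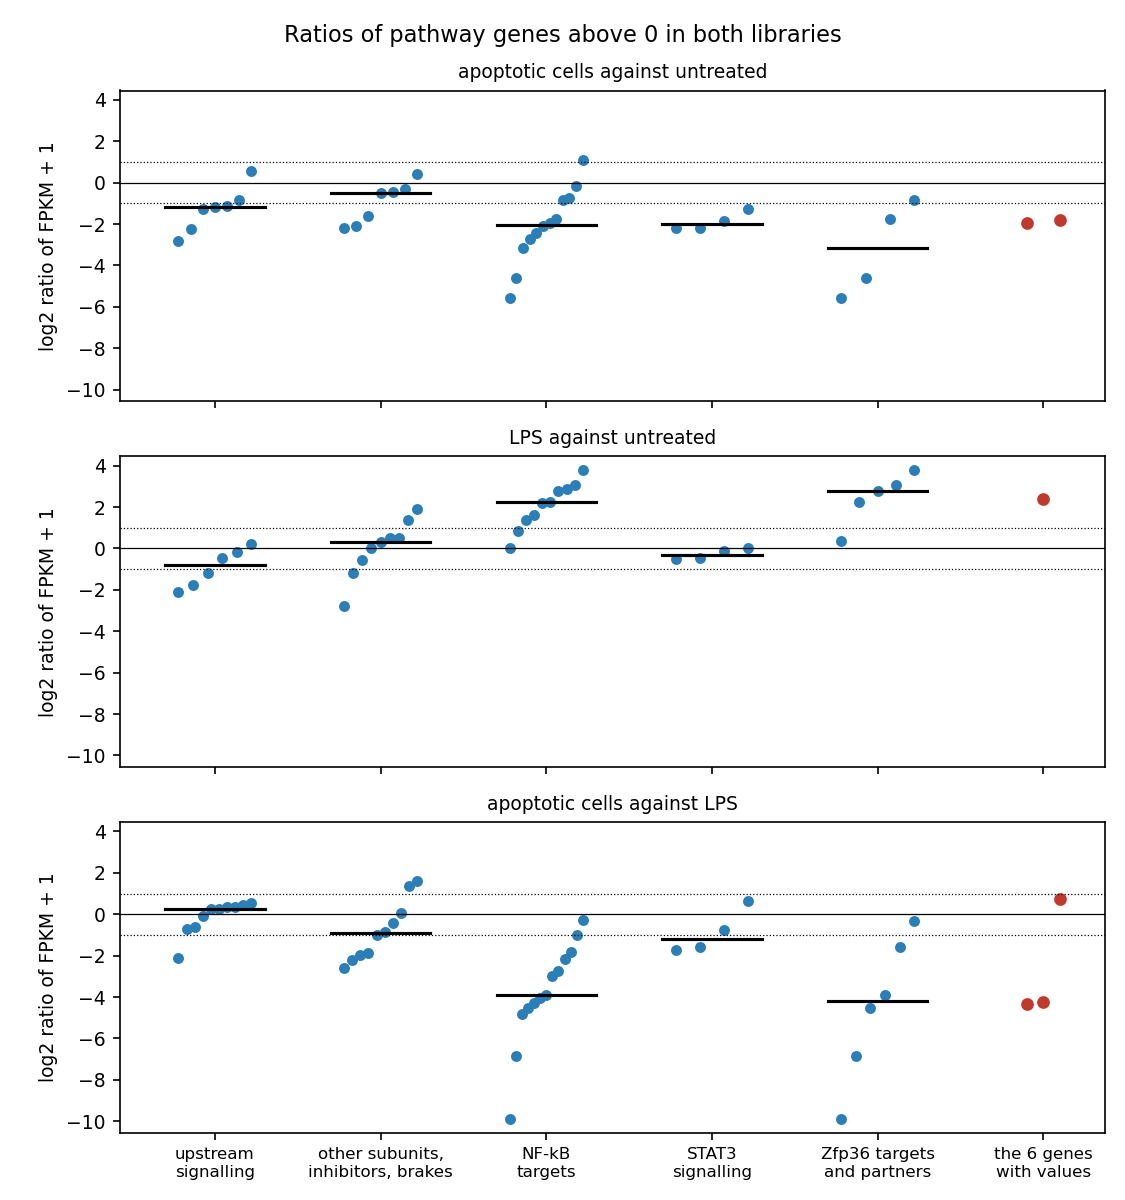
Each blue point is the log2 ratio of FPKM + 1 (vertical axis) of 1 gene above 0 in both libraries, by list (horizontal axis), black bars are list medians and red points are the genes of the set with a ratio. Dotted lines mark 2-fold. NF-kB target medians lie at -2.03, 2.23 and -3.89 from the top panel to the bottom, and upstream signalling medians at -1.19, -0.81 and 0.26.

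Genes whose pattern over the 3 libraries was closest to that of Socs3 were sought among 1637 genes above 0 in all 3 with a mean of at least 5 FPKM, leaving out uncharacterised models and small RNAs, by the root mean square distance of centred log2(FPKM + 1) values. The closest were Adora2b, an adenosine receptor gene (10.8 FPKM untreated, 2.16 FPKM after apoptotic cells and 65.7 FPKM after LPS, distance 0.04), the chemokine gene Ccl5 (292, 67.2 and 1353 FPKM in that order, distance 0.08) and Ier3 (distance 0.16). A likeness over 3 libraries is a description only.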

How the data were processed

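Each of the 3 libraries has a deposited table of 1 value per gene symbol. The deposited values were taken as FPKM, made by the authors with cutadapt 1.14, TopHat2 2.1.0, Cufflinks 2.2.1 and Cuffdiff on mm10, per the submitters' processing notes; the unit is presumed from those tools and from the spacing of low values. The sources used here give neither options nor annotation nor strandedness, so reads of overlapping genes may not be separated. The members and lists were chosen with earlier results of these data known.

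Ratios were log2((FPKM + 1) / (FPKM + 1)) for genes above 0 in both libraries and whose 3 values averaged 1 FPKM or more, which understates differences of low genes. No test was run, with 1 library per group. Reads per gene were estimated from the longest GENCODE M21 transcript less 200 bases and the value of 1 read, the peak of low values of genes with 1 transcript over 800 bases. Fold intervals are exact 95% binomial intervals on those estimates and cover counting error only. Named genes were the members and, per list, up to 4 with the largest ratios, plus Rela, Tnf, Il10 and Stat3 by plan. Genes given to complete a small count or for a listed 0 were named after their values were seen. Promoters were RefSeq's, matched by symbol for 5 of the 6 genes. Those other than that of Socs3 were added after values were seen. Python 3.11.15, numpy 2.4.6, pandas 2.3.3 and scipy 1.17.1 were used. Only the ratio step and the value of 1 read were tested on simulated data, which held no failed estimates. Alternatives were other pseudocounts, filters, thresholds and scalings, and a listed 0 taken as a value. Of the planned B-cell markers, 1 is not reported here.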

Additional observations from a re-analysis of the deposited data

How the results depend on the processing

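With 1 library per condition, leaving a replicate out was impossible. No paired analysis was possible because each group has 1 library. No member's log2 ratio changed sign under the scalings tried. A pseudocount cannot change a sign, and taking a listed 0 as a value cannot alter a ratio between values above 0. Of the alternative values, 126 of 192 stayed within 1.5 times the reported count or inside the counting interval of the reported ratio. Member ratios with a listed 0 taken as a value are among these, although they could not move. Depth limits the low values most: Nfkbiz with apoptotic cells rests on about 8 reads. Median-ratio scaling moved the median of all genes by 0.19, 0.53 and -0.33 log2 in the first, the second and the third comparison, and rescaling to a common sum by -0.07, -0.12 and 0.09. The cause of the changes below was not tested, except that thresholds and filters change how many genes qualify.

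For the members, Nfkbiz against LPS stood at -5.28 with a pseudocount of 0.1, -2.63 with one of 5 and -5.09 with each library rescaled to a sum of 1000000. Socs3 against LPS stood at -3.92 with a pseudocount of 5 and -4.73 with median-ratio scaling, which put Socs3 in LPS against untreated at 3.01 and Zfp36 against LPS at 0.34. At a 4-fold threshold on FPKM + 1, 0 members were lower with apoptotic cells than untreated, although Socs3 differed 4.10-fold by FPKM, and at 1.5-fold 1 member, Zfp36, was higher than with LPS. With a listed 0 taken as a value, 2 members were higher with apoptotic cells than untreated, 4 were higher and 1 lower with LPS than untreated, and 2 were higher with apoptotic cells than with LPS.

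Of other pathway genes with a ratio, 1 was higher and 19 lower of 29 with apoptotic cells than untreated, 10 and 5 of 29 with LPS than untreated, and 2 and 18 of 38 with apoptotic cells than with LPS. A listed 0 taken as a value gave 32 and 33 of 74, 31 and 19 of 64, and 23 and 30 of 72. At 4-fold the counts were 0 and 11 in the first comparison, 6 and 2 in the second, and 0 higher in the third. A pseudocount of 5 gave 0 higher in the first, 3 lower in the second and 1 higher in the third. A mean of at least 5 FPKM gave 3 lower in the second and 1 higher in the third, and median-ratio scaling 3 lower in the second.

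Over all genes, higher and lower counts were 418 and 554, 291 and 896, and 722 and 255 in the 3 comparisons. They became 746 and 1021, 543 and 1461, and 1537 and 496 at 1.5-fold, 96 and 143, 68 and 194, and 148 and 90 at 4-fold, 235 and 228, 164 and 321, and 278 and 155 with a pseudocount of 5, and 2682 and 1378, 2605 and 1674, and 1741 and 1423 where a listed 0 counted as a value. A mean of at least 5 FPKM gave 268 lower in the first, 429 lower in the second, and 398 and 163 in the third. Median-ratio scaling gave 650 and 436 in the second and 416 and 448 in the third, and rescaling to a common sum 988 lower in the first, 1418 lower in the second, and 1262 and 390 in the third.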
